A study of Mus musculus with 38 samples.

Results

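Cells of the Tcf21 lineage, sorted from the visceral fat of mice, were compared between Tcf21 knockout (KO) and wild-type (WT) mice after 12 weeks of high-fat diet. The comparison holds 7 of the 29 RNA-seq libraries of the study, 2 from KO and 5 from WT cells, chosen by their titles. In both groups the diet (Teklad #TD.06414) began at 6 weeks of age and lasted 12 weeks, and 5000 cells sorted by flow cytometry went into each library. The mice had tamoxifen, which switches on the Cre recombinase MerCreMer. The labels list an adult dose of 75 mg per kg and a neonatal dose of 100 µg, without saying which mice had which. Which promoter drives MerCreMer, which stretch of Tcf21 is removed, and which alleles the WT mice carry are not given in the sources used here. The labels do not say whether libraries came from separate animals, so each p-value measures a spread between libraries. In 5 of the 7 libraries the genotype field contradicts the title: both KO libraries read WT in it, and WT replicates 3, 4 and 5 read KO. Titles were followed here, and the level of Tcf21 was used as a check of them.

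Tcf21 is a basic helix-loop-helix transcription factor that pairs with E proteins on E-box DNA and marks mesenchymal progenitors of the heart, kidney, lung and visceral fat. Stromal progenitors of visceral fat make the tissue's collagen matrix, give rise to adipocytes and, in obesity, release cytokines, chemokines and acute phase proteins that draw in and hold immune cells. Tissue macrophages and lymphocytes gather in obese visceral fat, and their RNA can reach a sorted stromal sample.

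Values are in TPM, which gives the share of a library's transcripts that belongs to a gene, corrected for the length of the gene. The 7 columns summed to 944177 to 954668, and 12137 to 12409 genes reached 1 TPM in a library. TPM holds no read number, so depth is unknown. A library's log2(TPM + 1) values correlated with another's at r = 0.92 to 0.961 across genes. The 2 KO libraries correlated with each other at 0.952. KO replicate 1 correlated with WT libraries at 0.938 to 0.961 and KO replicate 2 at 0.92 to 0.959, so the libraries did not group by genotype. Markers of adipose stroma were abundant in all 7, from 24880 to 28160 TPM in sum in KO and from 24840 to 27160 in WT libraries, with Dcn, a collagen-binding proteoglycan, at 14313 and 10335 TPM in KO and 10758 to 15336 in WT libraries. Pdgfra, the receptor that defines adipose progenitors, read 171 and 121 TPM in KO and 122 to 184 in WT cells. RNA of other cell types was present in both groups. Macrophage markers summed to 2389 and 6781 TPM in the KO libraries and to between 3185 and 6562 TPM in the WT libraries, and no marker of this list was at 0 in all 7. The Y-linked gene Ddx3y was read in every library, at 107 and 91.3 TPM in KO and 57.1 to 99.2 TPM in WT cells. Along the first principal component (32.8% of the variance) WT replicates 2 and 3 stood at 68.9 and 35.5, against -47.9 to -0.674 for the other 5 libraries. The same pair had the highest haemoglobin (Hba-a1, 17533 and 7872 TPM), Cd74 and Igkc of all 7. Along the second component (18.3%) the KO replicates stood at 40.4 and -5.04, against -46.1 to 32 for the WT libraries.

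Tcf21 itself (chromosome 10, 22817281 to 22820174 on mm10) was low in both KO libraries, at 5.67 and 1.64 TPM, against 13.5, 10.2, 5.86, 7.13 and 10.1 TPM in the WT libraries. The groups did not overlap, but KO replicate 1 lay just under WT replicate 3. The log2 change was -1.26 ± 0.51 (SE), and the two-sided exact permutation test over libraries gave p = 0.0476, the smallest that 2 against 5 allows. Without KO replicate 2 the change was -0.59 and without KO replicate 1 it was -1.92. Of 16 tested genes for Tcf21 and other E-box factors, their E protein partners and their Id inhibitors, 8 had a positive change (median 0.02), and 3 without KO replicate 2. Id2, an inhibitor that holds E proteins off DNA, was also below every WT library, at 135 and 108 TPM in KO and 138 to 233 TPM in WT cells (-0.59 ± 0.44).

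The test over 15659 genes called 1 gene higher in KO cells (0.00639% of genes tested) and 0 lower (0%). It used limma on log2(TPM + 1) with all 29 libraries, and a gene passed at an adjusted p under 0.05. Its SE and p-values rest on the spread within all 8 RNA groups of the study, not on these 7 libraries alone. Without adjustment, 274 genes on the higher side (1.75%) and 296 on the lower side (1.89%) had a p under 0.05. All KO values lay above all WT values in 740 genes (4.73%) and below them in 817 (5.22%). A change above 0 was found in 7450 genes (47.6%), and the median over all genes was -0.01 on the log2 scale. These shares are the background for every gene list below. The genes named below, apart from Otop1, did not pass. The limma adjusted p was 0.0542 for Gpr34, 0.0547 for Chl1, and between 0.455 and 1 for the others. Changes given as a number ± SE are log2 differences of KO minus WT on the log2(TPM + 1) scale, which understates the change of low genes.

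**Figure D1:**
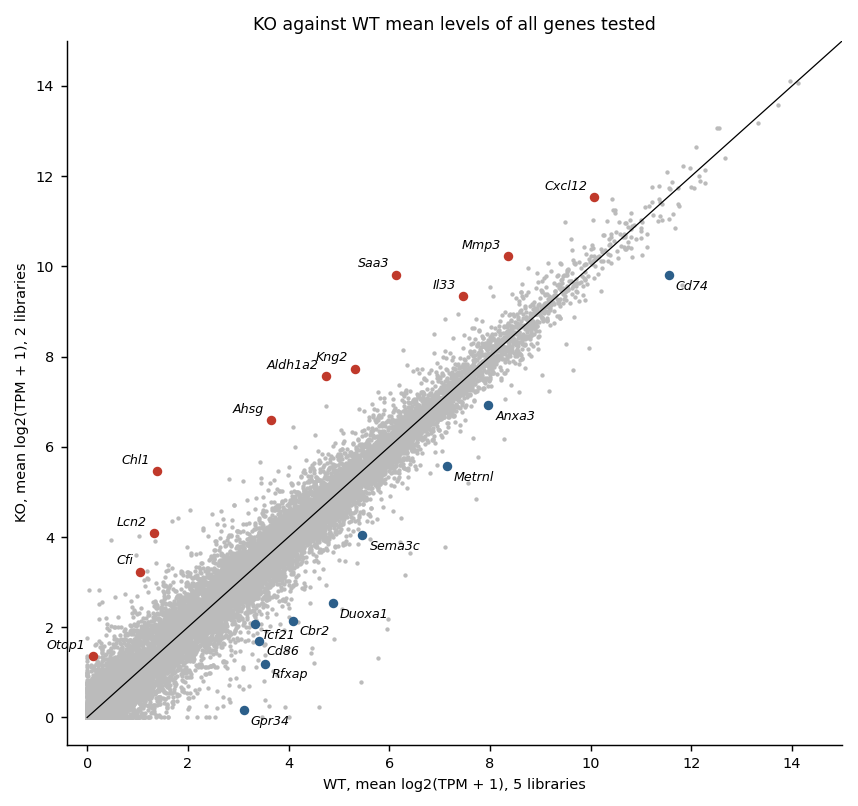
Mean log2(TPM + 1) of each of the genes tested in the 2 KO libraries (vertical axis) against the 5 WT libraries (horizontal axis), with the line of equal level. Labelled genes above the line (red) had higher KO means, such as Saa3 and Chl1; labelled genes below it (blue) had lower ones, such as Gpr34 and Cd74; the 1 gene that passed the test, Otop1, lies at the low end of both axes.

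The gene that rose was Otop1 (ENSMUSG00000051596, chromosome 5, 38275972 to 38304217 on mm10), a proton channel of the otopetrin family known from the vestibular organ and sour taste cells. KO libraries held 2.16 and 1.11 TPM of it, whereas WT replicate 1 held 0.46 TPM and WT replicates 2 to 5 were listed at 0. The change was 1.26 ± 0.21 (limma adjusted p = 0.0341). Otop1 was listed at 0 in all 22 RNA libraries of the study outside this comparison, which enter the shared estimate of its spread. It met the minimum level for testing, 1 TPM in 2 libraries, through the 2 KO libraries alone, so the values that admitted it are those that differ. In a fit of these 7 libraries alone its limma adjusted p was 0.779. It also lost the call without KO replicate 1 (change 0.97), without WT replicate 2 or 3 (1.23 each), without both of them (1.19), with a pseudocount of 0.1 (adjusted p = 0.106) and with a replicate block (1.10, adjusted p = 0.214). Of 14 otopetrins and acid-base transporters tested, 10 had a positive change (median 0.42, 0.68 without KO replicate 1 and 0.17 without KO replicate 2) and KO lay above WT in 4, among them the lactate carrier Slc16a1, at 21.1 and 22.9 TPM in KO and 5.34 to 19.8 TPM in WT cells (1.33 ± 0.43).

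Chl1 and Gpr34 were just outside the threshold and had larger changes. Chl1 (chromosome 6, 103510586 to 103750211), a cell adhesion molecule of the L1 family best known from neurons, read 40.3 and 45.95 TPM in KO cells. The WT libraries read 13.2, 0, 0.21, 1.11 and 2.34 TPM, so that both KO libraries exceeded WT replicate 1 by more than 3 times and the other WT libraries by far more (4.08 ± 0.76). Gpr34 (chromosome X, 13632089 to 13640858), a lysophosphatidylserine receptor of macrophages and microglia, was close to 0 in KO cells, at 0.15 and 0.08 TPM. Its WT libraries had 3.68, 15.2, 15.6, 5.15 and 5.13 TPM (-2.95 ± 0.54). Both genes passed under median-ratio scaling, quantile scaling, array weights, a fit with no trend and a fit with no filter on low values, at adjusted p between 0.00668 and 0.0496. Neither passed with rescaled columns, a pseudocount of 0.1, a filter of 5 TPM, a replicate block or the 7 libraries alone. Leaving out WT replicate 2 or 3 also gave no call for either gene. Without WT replicate 1 both passed, at a limma adjusted p of 0.000978 for Chl1 and 0.00675 for Gpr34. Without WT replicate 4 or 5 only Gpr34 passed (limma adjusted p 0.0395 and 0.0308).

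The promoter windows of Otop1, Chl1, Saa3 and Il33 are given here because these genes stand for the higher side of the comparison: the gene that passed, the largest positive change of genes with a group mean of at least 10 TPM, the most changed acute phase gene and the alarmin of the stroma. Each is the 250 bases before a start of transcription listed by RefSeq (GRCm38.p6), in lower case, with matches to the E-box letters CANNTG in capitals. The windows of Otop1 and Chl1 lie inside the gene spans given above, as do some windows looked up below inside theirs. Those spans came with the TPM values and begin further upstream than the RefSeq start. CANNTG reads the same on both strands.
Otop1 (chr5:38277154-38277403, plus strand): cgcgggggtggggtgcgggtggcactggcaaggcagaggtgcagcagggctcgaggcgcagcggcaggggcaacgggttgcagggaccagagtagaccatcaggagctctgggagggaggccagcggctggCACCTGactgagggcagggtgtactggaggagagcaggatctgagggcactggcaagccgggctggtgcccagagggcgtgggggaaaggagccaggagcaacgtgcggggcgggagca
Chl1 (chr6:103510626-103510875, plus strand): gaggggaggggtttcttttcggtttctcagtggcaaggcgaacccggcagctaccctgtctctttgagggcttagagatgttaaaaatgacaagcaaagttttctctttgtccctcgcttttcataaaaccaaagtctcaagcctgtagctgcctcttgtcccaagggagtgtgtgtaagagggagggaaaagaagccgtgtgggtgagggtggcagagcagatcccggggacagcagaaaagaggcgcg
Saa3 (chr7:46715677-46715926, minus strand): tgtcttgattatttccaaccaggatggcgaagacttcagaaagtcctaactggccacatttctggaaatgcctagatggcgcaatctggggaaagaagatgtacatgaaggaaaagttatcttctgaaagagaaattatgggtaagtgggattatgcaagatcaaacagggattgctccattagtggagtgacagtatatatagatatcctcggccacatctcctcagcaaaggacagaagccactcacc
Il33 (chr19:29924863-29925112, plus strand, the first of 2 listed starts): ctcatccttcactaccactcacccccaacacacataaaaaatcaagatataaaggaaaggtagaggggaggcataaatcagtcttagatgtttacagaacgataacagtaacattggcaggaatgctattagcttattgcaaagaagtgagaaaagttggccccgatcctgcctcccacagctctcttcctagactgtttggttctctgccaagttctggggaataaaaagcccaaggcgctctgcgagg
Otop1 held 1 match and the other 3 windows shown 0. Of other windows looked up, those of Lrg1, Cxcl1 and Osmr held 1 match each, and those of Steap4, Aldh1a2 and Sema3c 2 each. Those of Lcn2, Ahsg, Kng2, Serpina3n, Cxcl12 and Tcf21 held 0. Among 14462 windows of genes tested, 58.6% held at least 1. ATAC-seq peaks of WT cells at the same diet stage (2 libraries, 93314 and 82580 peaks, called by the authors for each library) covered 84.6% and 84.1% of those windows by at least 1 base. The Saa3 window lay under no peak in either list, as did those of the acute phase genes Lcn2 and Lrg1. The Il33 window lay under a peak in both, with the peak's own fold over background at 20 and 22.5, as did Chl1 at 6.88 and 7.5. The window of the second Il33 start (chr19:29945540-29945789) held 2 matches and lay under a peak of 4.45 in the second list only. Otop1 lay under a peak of 6.79 in the second list only. Among genes described below, Serpina3n (45.9 and 33.7), Steap4 (40 and 29.3), Cxcl12 (41.3 and 24.4), Aldh1a2 (23.3 and 22) and Sema3c (35.4 and 30.9) lay under peaks in both lists. The letters TTCNNNGAA, which also read the same on both strands and are known as a STAT binding pattern, were found in 6.01% of windows and, among these genes, only in that of Steap4. The study lists ATAC-seq of KO cells at 3 weeks of age only, and none at this stage.

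Acute phase genes leaned to the higher side. Of 20 tested acute phase and neutrophil-type proteins 15 had a positive change (median 0.61, 0.33 without KO replicate 1), and 7 had both KO libraries above all WT libraries. Saa3, the serum amyloid A of adipose tissue and macrophages, read 561 and 1445 TPM in KO cells and 365, 37.7, 53.3, 40.8 and 53.3 TPM in WT cells (3.67 ± 1.64). Hp, the haemoglobin scavenger haptoglobin, read 162 and 288 TPM in KO and 156, 14.5, 18.5, 53.3 and 41.3 TPM in WT cells (2.42 ± 0.90). In both genes WT replicate 1 was the highest WT library, and for Hp it nearly reached KO replicate 1.

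In further genes of the group both KO libraries also lay above all WT libraries, while the order within each group varied. Lcn2, an iron-siderophore binding lipocalin, read 10.8 and 23.2 TPM in KO and 0 to 3.55 TPM in WT cells (2.76 ± 1.22). Serpina3n, a secreted inhibitor of serine proteases, read 841 and 654 TPM in KO and 471, 150, 168, 311 and 298 TPM in WT cells (1.53 ± 0.58). Steap4, a metalloreductase that inflammation induces in fat, read 829 and 536 TPM in KO and 254 to 434 TPM in WT cells (0.95 ± 0.37). The genes of 3 plasma proteins usually made by the liver, outside the list, were among the 12 largest positive changes of genes with a group mean of at least 10 TPM, an unadjusted p under 0.05 and no overlap. KO cells had 66.3 and 138 TPM of the fetuin gene Ahsg and WT cells 63.8, 1.72, 3.17, 17.99 and 21.2 TPM (2.95 ± 0.88). The kininogen gene Kng2 read 202 and 222 TPM in KO and 143, 17.4, 15.3, 30.3 and 76.4 TPM in WT cells (2.41 ± 0.76), and Lrg1, a glycoprotein of the acute phase, 74.8 and 97.1 TPM in KO and 54.3, 7.85, 21.1, 16.6 and 6.51 TPM in WT cells (2.34 ± 1.12). The list's mean level was 4.61 and 4.17 log2 units in KO and 4.37, 3.19, 3.24, 3.45 and 3.44 in WT libraries, so WT replicate 1 lay between the KO libraries. The part of that library's difference from the other WT libraries in these results was not tested.

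**Figure D2:**
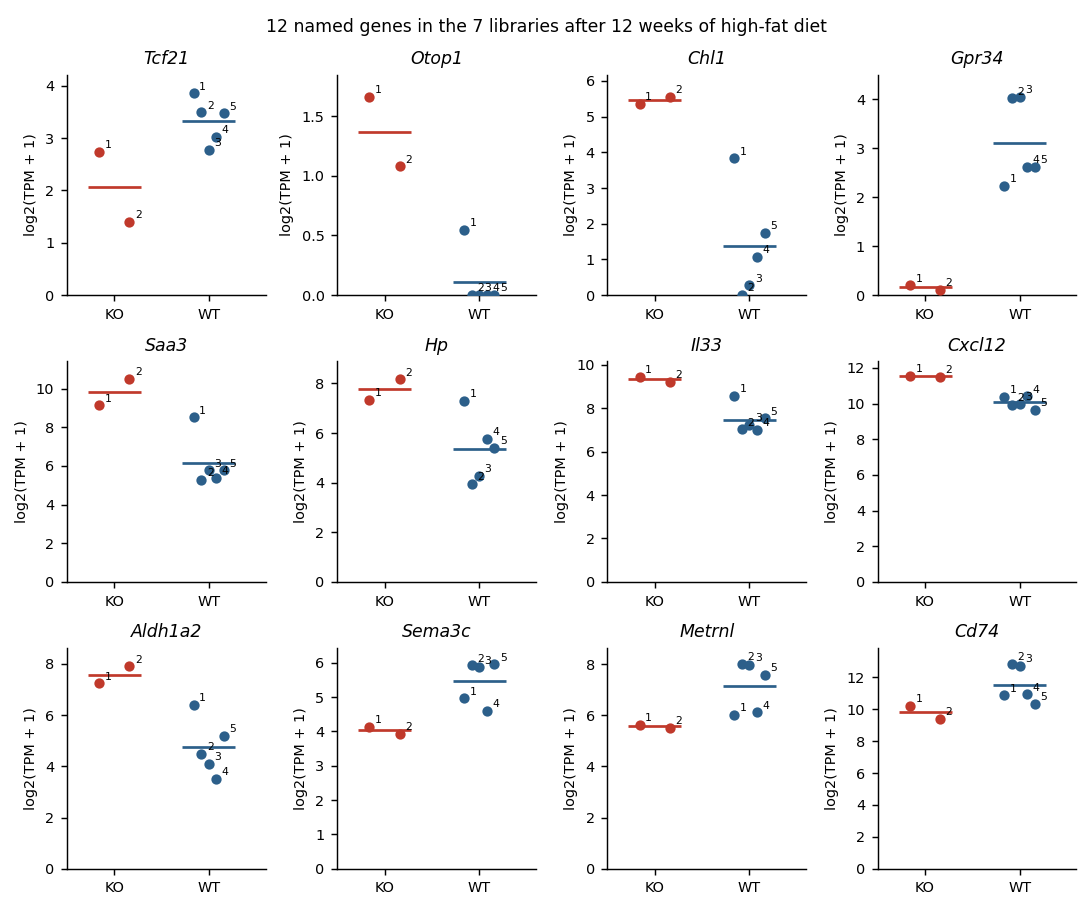
log2(TPM + 1) of 12 named genes in each library, KO on the left and WT on the right, with replicate numbers beside the points and the group mean as a line. In Saa3, Hp, Il33 and Aldh1a2 WT replicate 1 is the WT library nearest to the KO libraries, and in Cd74 WT replicates 2 and 3 are the highest.

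Cytokines, their receptors and their targets are taken in that order. Il33, an alarmin that stromal cells of fat store in the nucleus and that feeds regulatory T cells and innate lymphocytes, read 701 and 595 TPM in KO cells and 376, 130, 148, 128 and 185 TPM in WT cells (1.86 ± 0.50). Its receptor gene Il1rl1 overlapped between the groups, at 5.60 and 4.75 TPM in KO and 2.44 to 18.8 TPM in WT cells. Il1r1, the receptor of interleukin 1, read 157 and 116 TPM in KO and 92.0, 39.1, 54.4, 48.0 and 56.8 TPM in WT cells (1.26 ± 0.38). Of 15 genes of the interleukin 1 family 8 had a positive change (median 0.32), against 7 with a median of -0.09 without KO replicate 2 and 7 with a median of -0.01 without WT replicates 2 and 3. The list's level was 4.2 and 4.12 log2 units in KO and 4.29, 3.71, 3.81, 3.73 and 3.69 in WT libraries, so WT replicate 1 exceeded both KO libraries.

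In the interleukin 6 family 13 of 16 genes had a positive change (median 0.62), and KO lay above WT in 6 and below it in 1. Il6 itself was split between the KO libraries, at 573 and 71.9 TPM, with 49.4 to 214 TPM in WT cells (1.21 ± 0.80, and -0.28 without KO replicate 1). Osmr, the oncostatin M receptor, read 155 and 175 TPM in KO and 113, 62.0, 52.4, 69.6 and 79.8 TPM in WT cells (1.17 ± 0.39). Il11ra1, the receptor of interleukin 11, read 821 and 773 TPM in KO and 576 to 688 TPM in WT cells (0.37 ± 0.21). Stat3, the transcription factor these receptors share, read 204 and 178 TPM in KO and 104 to 157 TPM in WT cells (0.64 ± 0.32).

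Of 19 NF-kB subunits and the regulators that NF-kB induces, 16 had a positive change (median 0.70) and KO lay above WT in 6. Nfkbiz, an atypical inhibitor that steers NF-kB to secondary targets, read 192 and 111 TPM in KO and 104, 24.9, 28.9, 88.6 and 65.1 TPM in WT cells (1.43 ± 0.59). Sod2, the superoxide dismutase of mitochondria and an NF-kB target, read 203 and 214 TPM in KO and 189, 101, 104, 91.0 and 98.7 TPM in WT cells (0.89 ± 0.27). Nfkbia, the classical inhibitor, overlapped, at 1166 and 557 TPM in KO and 395 to 635 TPM in WT cells (0.69 ± 0.37). The prostaglandin enzymes had no common direction, with 10 of 17 genes positive (median 0.04) and 6 without WT replicates 2 and 3. Ptgs2, the inducible cyclooxygenase, was at 156 and 25.1 TPM in KO and 9.45 to 48.6 TPM in WT cells (1.88 ± 0.75), and Hpgd, which inactivates prostaglandin E, was at 40.0 and 55.8 TPM in KO and 53.7 to 134 TPM in WT cells (-1.01 ± 0.34).

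CXC chemokines lay on the higher side in 10 of 11 genes tested, with a median of 0.94, which was 1.5 without KO replicate 2 and 0.55 without WT replicates 2 and 3. KO lay above WT in 2 of them. The list's level was 6.34 and 6.02 log2 units in KO and 6.24, 5.2, 5.1, 5.34 and 4.85 in WT libraries, so WT replicate 1 lay between the KO libraries. Cxcl12, the chemokine with which stroma retains lymphocytes and stem cells, read 3034 and 2878 TPM in KO and 1317, 979, 1009, 1359 and 806 TPM in WT cells (1.46 ± 0.48), so that the lower KO library had more than 2 times the highest WT library. Cxcl5, a neutrophil attractant, read 20.3 and 26.4 TPM in KO and 13.8, 6.80, 3.69, 0.75 and 0.28 TPM in WT cells (2.55 ± 0.79). Cxcl1, another neutrophil attractant, was at 4186 and 974 TPM in KO and 469 to 1735 TPM in WT cells (1.48 ± 0.60). The exception was Pf4, a product of platelets and macrophages, at 73.4 and 30.6 TPM in KO and 70.3 to 176 TPM in WT cells (-1.35 ± 0.49). CC and other chemokines were split, with 8 of 15 positive (median 0.04). The monocyte attractant Ccl2 overlapped (1510 and 753 TPM in KO, 357 to 1334 TPM in WT cells), and Cx3cl1 lay above WT (26.6 and 69.4 TPM in KO, 5.35 to 25.3 TPM in WT cells). Ccl12, a chemokine of macrophages that is not in this list, lay below WT (2.07 and 1.21 TPM in KO, 2.46 to 24.8 TPM in WT cells).

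Complement genes lay on both sides. KO lay above WT in 6 of 20 genes and below it in 2, with 12 positive (median 0.30). Among those above were C3, the central component, at 1458 and 1381 TPM in KO and 846 to 1192 TPM in WT cells (0.45 ± 0.51), Serping1, the C1 inhibitor, at 8464 and 8600 TPM in KO and 5182 to 6664 TPM in WT cells (0.51 ± 0.32), and Cfi, a protease that cuts C3b, at 2.76 and 22.5 TPM in KO and 0 to 2.70 TPM in WT cells (2.18 ± 0.54). Both genes below were C1q chains, which macrophages make. C1qb read 185 and 243 TPM in KO and 371 to 467 TPM in WT cells (-0.95 ± 0.62), and C1qc 135 and 201 TPM in KO and 281 to 427 TPM in WT cells (-1.06 ± 0.56).

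Immediate early genes, which transcription factors of the Fos, Jun and Egr families lead and which also respond to tissue dissociation, had a positive change in 26 of 30 genes (median 0.59), with KO above WT in 5. Ier3, an early gene of the NF-kB response, read 420 and 187 TPM in KO and 171, 36.9, 50.4, 133 and 59.1 TPM in WT cells (1.87 ± 0.65). Fos overlapped, at 5667 and 3989 TPM in KO and 2770 to 6461 TPM in WT cells, as did Junb, at 3490 and 2357 TPM in KO and 547 to 3449 TPM in WT cells (1.05 ± 0.77). The list's level was 7.91 and 6.97 log2 units in KO and 6.2 to 7.25 in WT libraries, and the median was 0.26 without KO replicate 1 and 1.04 without KO replicate 2.

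**Figure D3:**
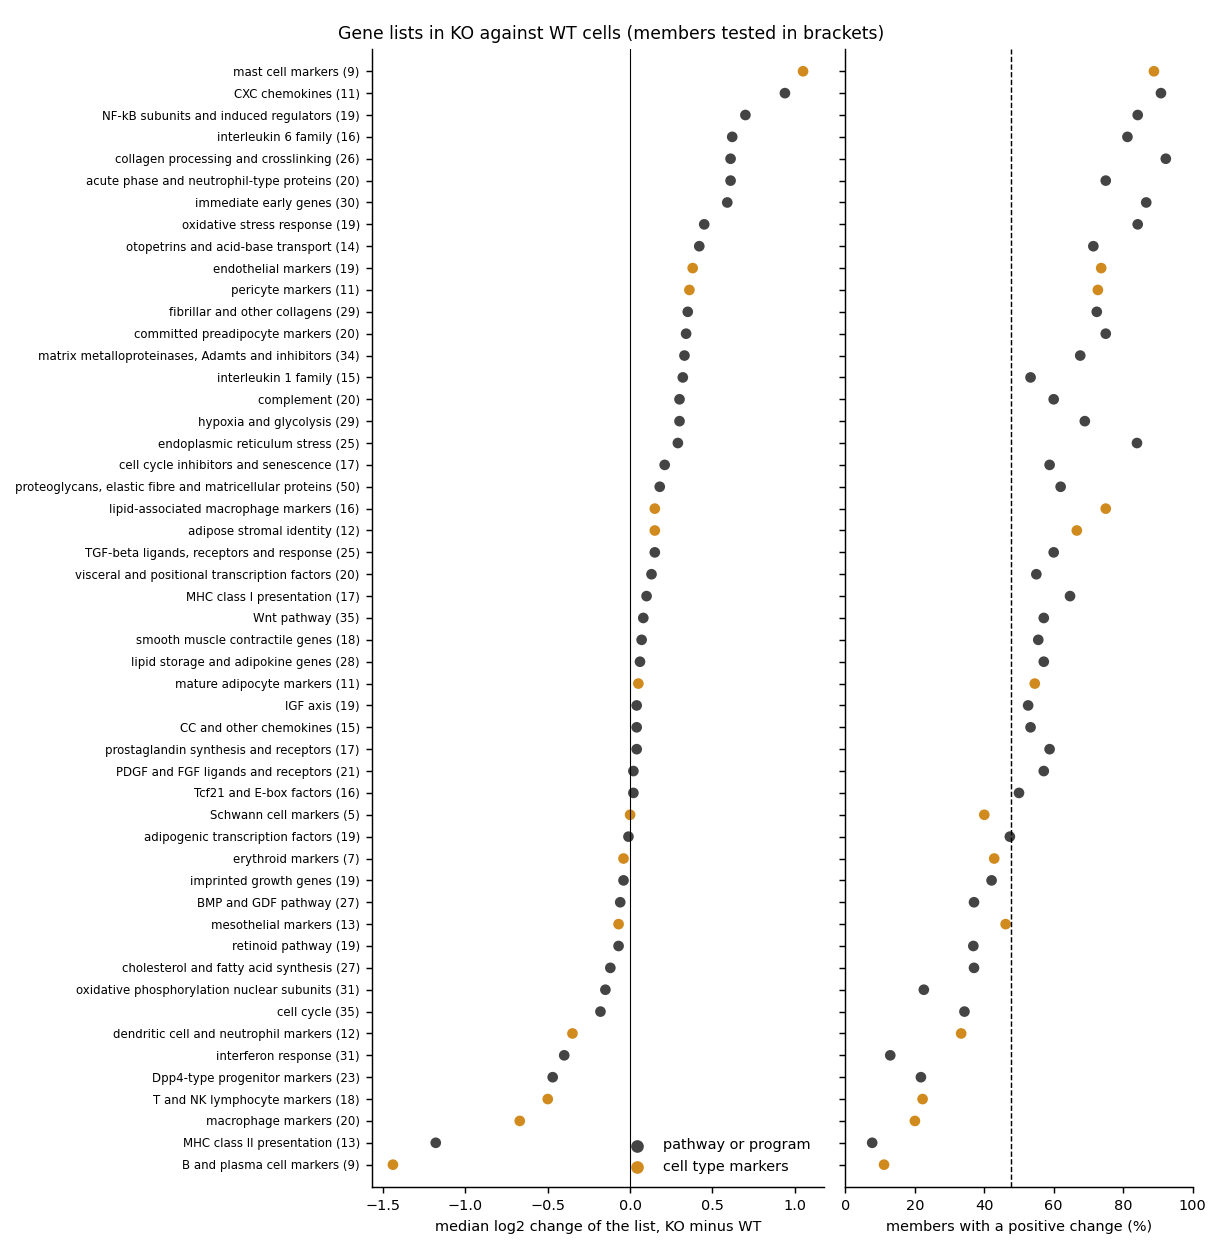
Each row is a gene list, with its number of members tested in brackets. The left panel gives the median log2 change of KO minus WT and the right panel the percentage of members with a positive change, with a dashed line at the 47.6% of all genes; mast cell markers, CXC chemokines, NF-kB and collagen processing lie near the top, and B and plasma cell markers, MHC class II and macrophage markers at the bottom.

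Retinoid genes lay on both sides, with 7 of 19 positive (median -0.07) and 12 without KO replicate 1. Retinol is oxidised to retinal and then to retinoic acid. Aldh1a2, which makes retinoic acid in mesoderm, read 150.0 and 239 TPM in KO and 83.5, 21.4, 16.2, 10.5 and 35.5 TPM in WT cells (2.83 ± 1.02). Aldh1a1 and Aldh1a3, of the same enzyme family, overlapped between the groups. Aldh1a1 was at 164 and 226 TPM in KO and 153 to 295 TPM in WT cells (-0.215 ± 0.428). Aldh1a3 was at 167 and 75.0 TPM in KO and 68.3 to 221 TPM in WT cells (-0.307 ± 0.362). Rdh10, the retinol dehydrogenase, read 45.9 and 28.1 TPM in KO and 28.4, 7.5, 6.76, 10.6 and 11.6 TPM in WT cells (1.58 ± 0.46). Dhrs3, which reduces retinal back to retinol, lay below WT, at 525 and 423 TPM in KO and 681, 901, 1047, 739 and 745 TPM in WT cells (-0.78 ± 0.39).

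The insulin-like growth factor axis had 10 of 19 genes positive (median 0.04). Igf1 was at 409 and 355 TPM in KO and 155 to 404 TPM in WT cells (0.79 ± 0.39). Igfbp4, a binding protein of the stroma, lay above WT, at 329 and 479 TPM in KO and 137 to 273 TPM in WT cells (0.94 ± 0.43), while Igfbp3 was at 20.1 and 10.2 TPM in KO and 15.6 to 134 TPM in WT cells (-1.68 ± 0.74). The imprinted growth genes had 8 of 19 positive (median -0.04). Igf2, the fetal growth factor, was near the bottom of its range in all libraries, at 3.33 and 1.45 TPM in KO and at most 1.10 TPM in WT cells. Dlk1, a preadipocyte protein, was at 0 in both KO libraries and at most 1.07 TPM in WT cells, and Cdkn1c, a growth-restraining cell cycle inhibitor, was at 90.5 and 38.3 TPM in KO and 90.0 to 209 TPM in WT cells (-1.15 ± 0.38).

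Collagen processing enzymes had the largest share of positive changes among lists of more than 20 genes: 24 of 26, with a median of 0.61, and 22 of 26 with a median of 0.27 without WT replicates 2 and 3. KO lay above WT in 7 of them. P4hb, the shared subunit of prolyl hydroxylase, read 673 and 786 TPM in KO and 539, 421, 384, 556 and 529 TPM in WT cells (0.60 ± 0.26). Plod3, a lysyl hydroxylase, read 52.8 and 84.4 TPM in KO and 47.7, 21.6, 18.1, 41.9 and 46.6 TPM in WT cells (1.01 ± 0.38). Pcolce, the enhancer of procollagen C-proteinase, read 2036 and 2134 TPM in KO and 1680, 614, 718, 1218 and 1420 TPM in WT cells (0.99 ± 0.40). Its partner protease Bmp1 overlapped, at 70.2 and 145 TPM in KO and 30.9 to 84.0 TPM in WT cells (0.87 ± 0.40).

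The collagens that these enzymes act on overlapped between the groups. Of 29 collagen genes 21 had a positive change (median 0.35, and 0.07 without WT replicates 2 and 3), and KO lay above WT in 0. Col1a1 was at 772 and 1506 TPM in KO and 239 to 1104 TPM in WT cells (0.91 ± 0.62), and Col3a1 at 3735 and 5087 TPM in KO and 1666 to 5052 TPM in WT cells (0.57 ± 0.43). Of 34 metalloproteinases, Adamts enzymes and inhibitors 23 were positive (median 0.33, and 0.08 without KO replicate 2). Mmp3, stromelysin, was at 725 and 1986 TPM in KO and 148 to 918 TPM in WT cells (1.86 ± 0.75), and the inhibitor Timp3 at 108 and 68.3 TPM in KO and 51.4 to 304 TPM in WT cells (-0.74 ± 0.50).

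Among 50 proteoglycans, elastic fibre and matricellular genes 31 were positive (median 0.18, and 0.01 without WT replicates 2 and 3). Emilin1, an elastic fibre glycoprotein, lay above WT at 61.1 and 110.2 TPM in KO and 24.2 to 55.2 TPM in WT cells (0.89 ± 0.36). Ltbp1, which tethers latent TGF-beta to matrix, lay below it at 34.9 and 23.3 TPM in KO and 37.3 to 49.6 TPM in WT cells (-0.56 ± 0.25). Sparc, a collagen-binding matricellular protein, overlapped, at 5798 and 6970 TPM in KO and 2570 to 6265 TPM in WT cells. TGF-beta pathway genes had 15 of 25 positive (median 0.15, 0.51 without KO replicate 1 and 0.01 without WT replicate 2), BMP and GDF genes 10 of 27 (median -0.06) and Wnt genes 20 of 35 (median 0.08), with 16 of 35 without WT replicates 2 and 3. Bmper, a secreted BMP modulator, lay above WT at 486 and 427 TPM in KO and 131 to 390 TPM in WT cells (1.10 ± 0.47).

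Genes of endoplasmic reticulum stress and folding had a positive change in 21 of 25 cases, with a smaller median of 0.29, and KO lay above WT in 7. The list's level was 6.63 and 6.67 log2 units in KO and 6.26 to 6.48 in WT libraries, so the groups did not overlap in it. Hyou1, a chaperone, read 4.27 and 10.2 TPM in KO and 0.59 to 4.07 TPM in WT cells (1.39 ± 0.62). Calr, calreticulin, read 630 and 747 TPM in KO and 255 to 546 TPM in WT cells (0.80 ± 0.34), and Hspa5, the chaperone BiP, overlapped at 2946 and 2564 TPM in KO and 2269 to 2666 TPM in WT cells. Across settings the median of this list stayed between 0.20 and 0.32.

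Markers of the Dpp4-type progenitors, the least committed fibroblasts of adipose stroma, leaned to the lower side. Of 23 genes 5 had a positive change (median -0.47, and -0.94 without KO replicate 1), KO lay below WT in 6 and above it in 0. Sema3c, a secreted guidance cue, read 16.6 and 14.3 TPM in KO and 30.2, 59.96, 57.5, 23.3 and 61.1 TPM in WT cells (-1.43 ± 0.38). Anxa3, a phospholipid-binding annexin, read 116 and 124 TPM in KO and 144, 374, 315, 207 and 274 TPM in WT cells (-1.05 ± 0.37). The list's level was 5.00 and 4.74 log2 units in KO and 5.04, 5.54, 5.64, 5.35 and 5.63 in WT libraries, where WT replicate 1 was again the nearest. Committed preadipocyte markers, which include C3 and Steap4, had 15 of 20 positive (median 0.34), and 12 with a median of 0.19 without WT replicates 2 and 3.

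Adipocyte genes had no common direction. Adipogenic transcription factors had 9 of 19 positive (median -0.01), and 5 without WT replicates 2 and 3. Lipid storage and adipokine genes had 16 of 28 positive (median 0.06), and 10 without WT replicate 2. Lpl, lipoprotein lipase, was at 1823 and 3289 TPM in KO and 668 to 2099 TPM in WT cells (0.81 ± 0.43), and the fatty acid carrier Fabp4 at 545 and 1066 TPM in KO and 303 to 1331 TPM in WT cells. Cidec, a lipid droplet protein of mature adipocytes, lay below WT at 0.17 and 0.50 TPM in KO and 2.26 to 21.1 TPM in WT cells (-2.41 ± 1.09). Metrnl, a secreted factor of adipose and muscle, also lay below WT, at 48.5 and 44.4 TPM in KO and 63.9, 256, 250, 68.4 and 190.2 TPM in WT cells (-1.57 ± 0.66).

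Other genes among the 12 largest negative changes by the same rule had varied roles. Duoxa1, the maturation factor of a dual oxidase, read 3.27 and 6.83 TPM in KO and 8.62, 108, 35.0, 28.5 and 18.4 TPM in WT cells (-2.34 ± 1.08). Rfxap, a subunit of the factor that drives MHC class II genes, read 1.18 and 1.39 TPM in KO and 2.17, 15.4, 28.9, 7.29 and 14.8 TPM in WT cells (-2.34 ± 0.98). Il17d, Pla2g12a, Ptpro and Pank4 were the others outside the immune lists, with changes between -1.63 and -1.49. On the higher side Syndig1, a synaptic protein, read 15.2 and 17.7 TPM in KO and 0 to 12.5 TPM in WT cells (2.82 ± 0.80). Gabra3 (4.18 and 50.5 TPM in KO, at most 2.56 in WT cells) and C1rb (0.29 and 37.7 TPM in KO, at most 0.07 in WT cells) were high in KO replicate 2 and low in KO replicate 1.

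Genes of antigen presentation by MHC class II leaned to the lower side. Of 13 genes 1 had a positive change (median -1.18), 2 without KO replicate 1 or WT replicate 1, and KO lay below WT in 4. Cd74, the invariant chain of class II molecules, read 1187 and 674 TPM in KO and 1861, 7444, 6815, 1969 and 1286 TPM in WT cells (-1.74 ± 0.86). The class II chain gene H2-Ab1 read 407 and 206 TPM in KO and 657, 2497, 2291, 681 and 382 TPM in WT cells (-1.78 ± 0.91). Cd86, a costimulatory ligand, read 2.37 and 2.14 TPM in KO and 6.31, 16.7, 18.1, 6.43 and 6.42 TPM in WT cells (-1.71 ± 0.54). WT replicates 2 and 3 were the highest in all 3 genes, and without them the list's median was -0.77, with 1 of 13 positive. In a bulk sample, fewer cells of a type and less RNA per cell cannot be told apart.

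Macrophage markers had a positive change in 4 of 20 cases (median -0.67, and -0.33 without KO replicate 1). The count was 0 of 20 without KO replicate 2 and 7 of 20 without KO replicate 1. Ms4a7, a membrane protein of resident macrophages, read 29.3 and 60.2 TPM in KO and 66.2 to 138 TPM in WT cells (-1.37 ± 0.56). Of the largest negative changes, Cbr2 (3.21 and 3.67 TPM in KO, 6.07 to 45.9 TPM in WT cells), the lectin gene Clec4b1 (12.9 and 13.9 TPM in KO, 15.6 to 78.3 TPM in WT cells) and Ly86, a partner of a Toll-like receptor homologue (11.6 and 9.11 TPM in KO, 19.6 to 43.2 TPM in WT cells), are also genes of myeloid cells. Not every myeloid gene followed: Lyz2, the macrophage lysozyme, was at 736 and 3549 TPM in KO and 961 to 1701 TPM in WT cells. Of 16 lipid-associated macrophage markers, many of which stroma also expresses, 12 were positive (median 0.15), against 2 without KO replicate 2, 5 without WT replicate 2 and 3 without WT replicates 2 and 3.

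Lymphoid markers differed between libraries of the same group. Of 18 T and NK cell markers 4 had a positive change (median -0.50), 1 without KO replicate 2, 7 without KO replicate 1, 8 without WT replicate 2 and 9 without WT replicates 2 and 3. Trbc2, a constant region of the T cell receptor, read 2.91 and 0.82 TPM in KO and 9.07, 35.7, 14.2, 2.80 and 2.96 TPM in WT cells (-1.86 ± 0.77). Of 9 B and plasma cell markers 1 was positive (median -1.44, and -0.46 without KO replicate 2), and 2 without KO replicate 1. Igkc, the antibody kappa chain, read 2783 and 212 TPM in KO and 3130, 10649, 6461, 1914 and 1461 TPM in WT cells, and Jchain, which joins antibody polymers, 524 and 42.1 TPM in KO and 298 to 1454 TPM in WT cells. Both overlapped between the groups. Mast cell markers had the reverse order, with 8 of 9 positive (median 1.05), and the protease Mcpt4 at 13.1 and 30.7 TPM in KO and 14.6, 3.33, 8.48, 0.81 and 8.88 TPM in WT cells (1.70 ± 0.49). Without WT replicate 4, where mast cell genes were lowest, that median was 0.26. Dendritic cell and neutrophil markers had 4 of 12 positive (median -0.35), endothelial markers 14 of 19 (0.38, 0.73 without WT replicate 4 and 0.04 without WT replicates 2 and 3), pericyte markers 8 of 11 (0.36, and 0.02 without KO replicate 2), mesothelial markers 6 of 13 (-0.07), Schwann cell markers 2 of 5 (-0.00), mature adipocyte markers 6 of 11 (0.05) and erythroid markers 3 of 7 (-0.04). Adipocyte markers were positive in 3 of 11 without WT replicate 2 or 5, and erythroid markers in 0 of 7 without KO replicate 1 and in 6 without KO replicate 2, WT replicate 2 or WT replicates 2 and 3. How far these cell types' RNA bears on the inflammatory and class II results was not tested.

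**Figure D4:**
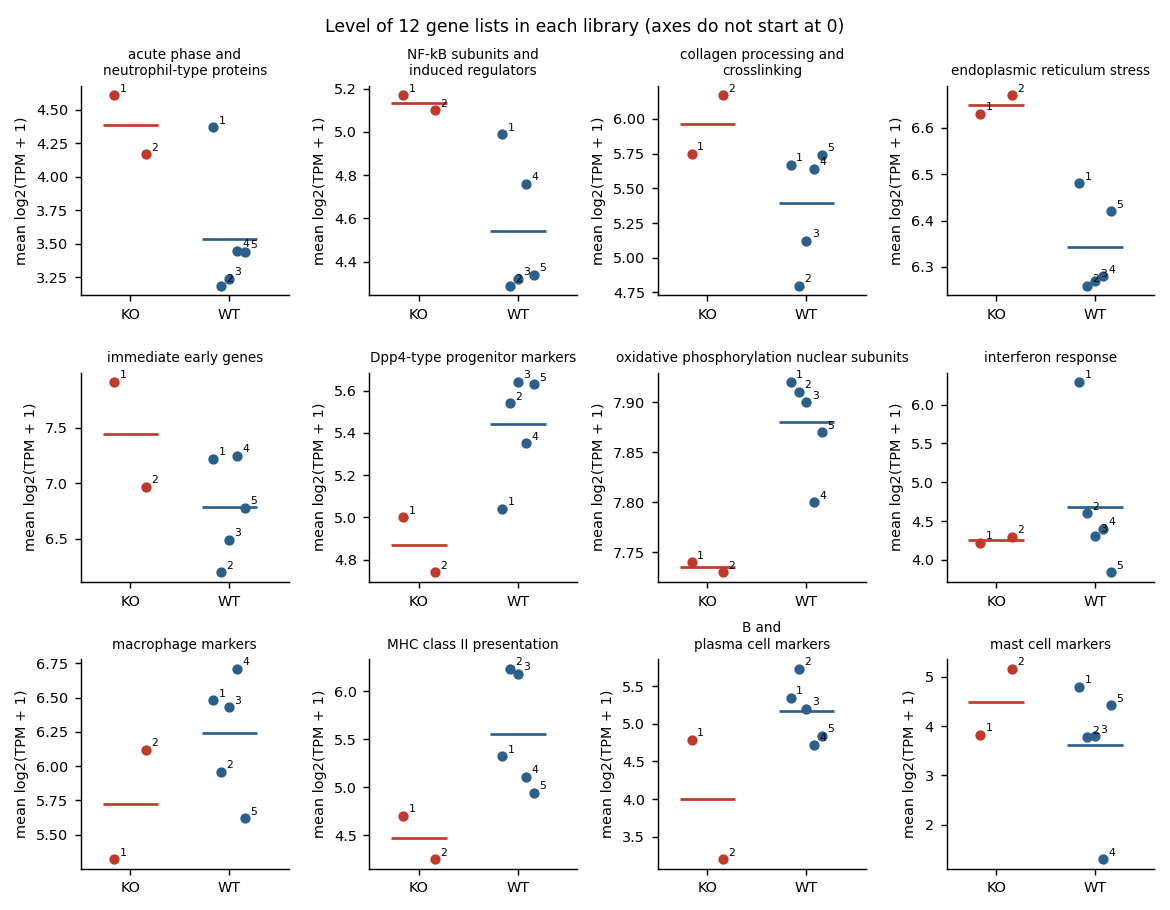
Mean log2(TPM + 1) over the members of 12 gene lists in each library, KO on the left and WT on the right, with replicate numbers and the group mean as a line. KO and WT libraries do not overlap for NF-kB, collagen processing, endoplasmic reticulum stress, oxidative phosphorylation, Dpp4-type markers and MHC class II, while interferon response is high in WT replicate 1 alone.

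Interferon response genes had a positive change in 4 of 31 cases (median -0.40), a count that 1 WT library set. Without WT replicate 1 it was 15 of 31 with a median of -0.05, and without KO replicate 1 it was 8 of 31. The list's level was 4.22 and 4.30 log2 units in KO and 6.29, 4.6, 4.31, 4.40 and 3.84 in WT libraries. Ifit3, an interferon-induced antiviral protein, read 49.0 and 42.0 TPM in KO and 386, 108, 64.8, 54.2 and 18.96 TPM in WT cells. Bst2, tetherin, read 112 and 93.4 TPM in KO and 424, 149, 128, 119 and 92.8 TPM in WT cells. Ifit2 was the 1 member with both KO libraries below all WT libraries, at 8.31 and 7.64 TPM in KO and 9.71 to 35.5 TPM in WT cells (-1.02 ± 0.36).

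Energy metabolism genes differed by small amounts. Nuclear subunits of oxidative phosphorylation had a positive change in 7 of 31 cases (median -0.15), and KO lay below WT in 7 and above it in 1. Ndufb8, a subunit of complex I, read 335 and 298 TPM in KO and 431, 625, 658, 405 and 398 TPM in WT cells (-0.64 ± 0.27), and Uqcrc1, of complex III, 259 and 279 TPM in KO and 318 to 469 TPM in WT cells (-0.50 ± 0.26). The list's level was 7.74 and 7.73 log2 units in KO and 7.80 to 7.92 in WT libraries, and 11 of 31 were positive without KO replicate 2. Hypoxia and glycolysis genes had 20 of 29 positive (median 0.30, and 0.01 without KO replicate 2). Ldha, lactate dehydrogenase A, lay above WT at 662 and 595 TPM in KO and 280 to 493 TPM in WT cells (0.79 ± 0.23), whereas Adm, a hypoxia-induced peptide hormone, was at 273 and 63.1 TPM in KO and 124 to 722 TPM in WT cells (-1.25 ± 0.49). Oxidative stress genes had 16 of 19 positive (median 0.45, 0.81 without KO replicate 1 and 0.15 without KO replicate 2).

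Cell cycle and sterol genes depended on which KO library was kept. Of 35 cell cycle genes 12 had a positive change (median -0.18), 25 without KO replicate 1 and 2 without KO replicate 2. Of 27 cholesterol and fatty acid synthesis genes 10 were positive (median -0.12), 5 without KO replicate 1, 21 without KO replicate 2 and 6 without WT replicates 2 and 3. For smooth muscle contractile genes 10 of 18 were positive (median 0.07), for PDGF and FGF genes 12 of 21 (0.02), for cell cycle inhibitors 10 of 17 (0.21), for positional transcription factors 11 of 20 (0.13) and for MHC class I genes 11 of 17 (0.10), with 6 of 17 without WT replicates 2 and 3.

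The KO minus WT difference at 12 weeks of diet was then set against the same difference after 1 week of diet (2 KO, 4 WT libraries) and at 3 weeks of age on regular diet (5 KO, 7 WT). The difference itself passed the test in 2 genes against 1 week (0.0128% of genes tested), where 432 had an unadjusted p under 0.05. Against 3 weeks of age limma called 0 genes (0%), where 419 had an unadjusted p under 0.05, and 0 with median-ratio or quantile scaling. It called 9 without the filter on low values and 8 with a replicate block. That block used the pair numbers that titles of 3-week libraries give, which the main fit left out. The 2 genes called against 1 week, Ighv2-6-8 (-4.77 ± 0.78, limma adjusted p = 0.0238) and Lrrn4 (-2.66 ± 0.47, limma adjusted p = 0.0406), were high in KO cells at 1 week. At 12 weeks both were under 0.5 TPM in every library except WT replicate 2, where Ighv2-6-8 was at 8 TPM.

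For the genes above, the stages had differing values without a difference that passed. Otop1 was at 0.00 in KO minus WT at both earlier stages and at 1.26 at 12 weeks (adjusted p of the difference 0.584 against 1 week and 0.314 against 3 weeks). Chl1 stood at 0.07 at 3 weeks of age, 2.59 after 1 week of diet and 4.08 after 12 weeks (adjusted p 0.726 against 3 weeks). Gpr34 stood at 0.28, 0.42 and -2.95 over the same stages (adjusted p 0.314 against 3 weeks). Il33 stood at -0.09, 0.71 and 1.86, Saa3 at 0.33, 5.12 and 3.67, and Igf2 at -0.64, -2.22 and 1.46, with an adjusted p of 1 against 3 weeks for each. Cd74 was positive at 3 weeks (2.15) and after 1 week (0.54) and negative at 12 weeks (adjusted p 1). Age differs between these stages together with diet, and both differences use the same 12-week libraries.

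**Figure D5:**
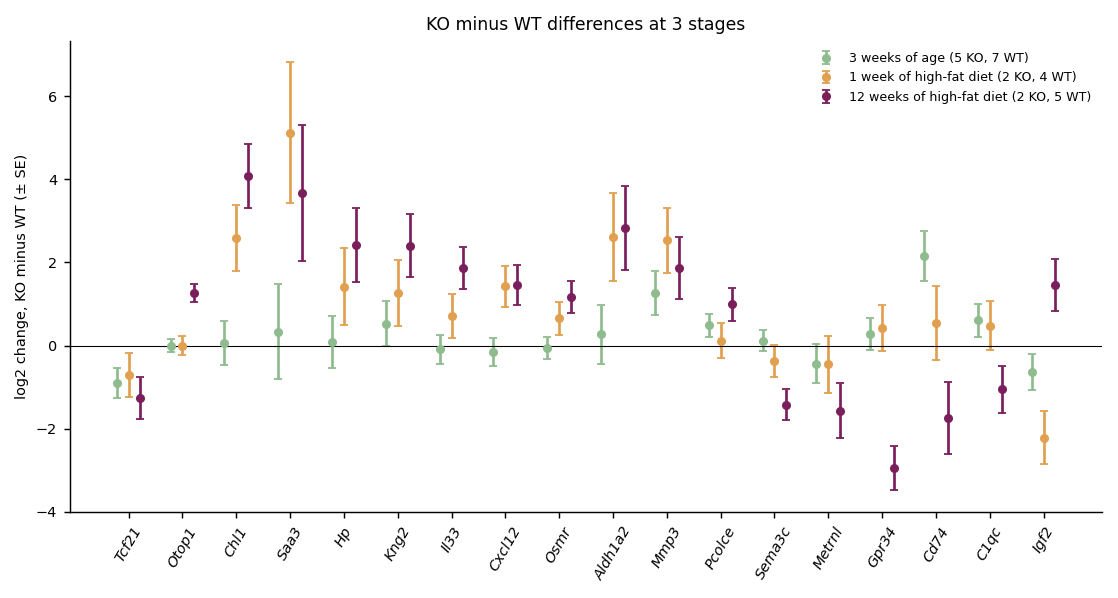
log2 difference of KO minus WT (± SE from limma) for 18 genes at 3 weeks of age, after 1 week and after 12 weeks of high-fat diet. Chl1 and Il33 have their largest value at 12 weeks, Saa3 after 1 week, and Gpr34 and Cd74 are below 0 at 12 weeks alone.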

How the data were processed

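RNA-seq levels were read from the gene table of TPM values that the authors deposited. Per the submitters' processing notes the tools were STAR 2.5.3a, RSEM, Trim Galore 0.6 and, for ATAC-seq, Bowtie2 2.3 and MACS2, with mm10. The peak lists give a fold ratio over background for each peak, which the authors deposited for each library. Read depth is unknown. The labels' titles gave the groups, since the genotype field contradicts them in 22 of 38 samples. Read in reverse sample order the field matches the title in all 38.

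The 15659 genes that reached 1 TPM in 2 or more of the 29 RNA libraries were tested on log2(TPM + 1) with limma 3.58.1 in R 4.3.3, with 8 group means, a variance trend, contrasts for each difference and Benjamini-Hochberg adjustment over all genes. Tcf21 had a two-sided exact permutation test. The fit was tested on simulated data. The members, 51 gene lists (1002 genes, 952 tested) and the rule for named genes were chosen with earlier results of these data known. The rule named genes past the threshold, the 12 largest changes in each direction among non-overlapping genes with a group mean of at least 10 TPM, members of each list by level and by test statistic, and 5 chosen genes. Other named genes were chosen for their role, after their values were seen. Alternatives changed the scaling, filter, pseudocount, fit or libraries.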

Additional observations from a re-analysis of the deposited data

Results flagged for a closer look

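After 1 week of diet KO cells held Ighv2-6-8, an antibody heavy chain segment, at 19.3 and 21.5 TPM, and the 4 WT libraries of that stage were at 0. After 12 weeks it was at 0.48 and 0 TPM in KO cells and at 8 TPM in 1 of 5 WT libraries. The KO minus WT difference changed by -4.77 from 1 week to 12 weeks, which the test of the difference passed. Lrrn4, a leucine-rich repeat protein, stood out in the same test at -2.66. It was at 8.35 and 2.86 TPM in KO cells and 0 in the 4 WT libraries after 1 week, and at most 0.38 TPM in any library after 12 weeks.

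Of 106 named genes checked, 9 had a WT library after 12 weeks that stood far from the other WT libraries. The measure was that library's gap to the nearest one over the whole range of log2(TPM + 1). WT replicate 1 was the highest for Otop1 (ratio 1.000), Saa3 (0.849), Sod2 (0.822) and Lrrn4 (0.819). WT replicate 2 was the lowest for Dlk1 (0.793) and Emilin1 (0.792) and the highest for Ighv2-6-8 (1.000). WT replicate 4 was the highest for Igf2 (0.872) and Hspa5 (0.744). For normally distributed values chance alone flags about 1 group in 20. That rate does not hold for Otop1, Igf2, Dlk1, Lrrn4 and Ighv2-6-8, which had WT libraries at or near 0 TPM. A high ratio can also rest on a small gap: Hspa5 was at 2666 TPM in WT replicate 4 and 2269 to 2365 TPM in the other WT libraries.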

How the results depend on the processing

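Counts of genes called on the TPM values, in the order higher, lower, differing from 1 week and differing from 3 weeks, were 1, 0, 2 and 0 as reported. They were 5, 1, 2 and 0 without a variance trend and with median-ratio scaling, 6, 2, 2 and 0 with array weights, 4, 1, 2 and 0 with quantile scaling, 20, 2, 14 and 9 without the filter on low values, and 0 for all 4 with the 5 TPM filter or a pseudocount of 0.1. Rescaled columns changed none of the 4 counts. The 12-week libraries alone called 0 and 0. With 1 library left out the ranges were 0 to 14, 0 to 3, 0 to 3 and 0 to 7. Without WT replicates 2 and 3, a setting chosen after seeing the data, they were 0, 0, 1 and 0. Deviations of same-numbered 12-week libraries from their group means correlated at r = -0.0114 and -0.185. With 2 KO libraries these deviations mirror each other, so the values cannot tell whether equal numbers mark pairs. A replicate block, which also used the pair numbers in titles at 3 weeks of age, gave 1, 20, 4 and 8. The gene it called higher was not Otop1. Tcf21 ranged from -1.92 to -0.59 with 1 library left out, where the exact test cannot reach the threshold. The sign turned for Ccl2 with the replicate block (-0.18), for Fabp4 (-0.39), Hba-a1 (0.80), Pdgfra (-0.02) and Ighv2-6-8 (0.28) without WT replicates 2 and 3, and for Ighv2-6-8 with a pseudocount of 0.1 (0.00). With 1 library left out it also turned for Ccl2 (-0.12 to 0.88), Il6 (-0.28 to 2.69), Fabp4 (-0.29 to 0.68), Lyz2 (-0.88 to 1.38), Hba-a1 (-1.95 to 0.94), Pdgfra (-0.21 to 0.28), Dcn (-0.39 to 0.08), Ighv2-6-8 (-0.63 to 0.28) and Lrrn4 (-0.11 to 0.01). The cause was not tested. The 2 KO libraries and an unknown read depth limit the precision of every value.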
